A study of Mus musculus with 16 samples.

Results

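The genes described here take glucose into hepatocytes, break it down in glycolysis, and store it as or release it from glycogen. They are Slc2a2 (glucose transporter GLUT2), Pklr (pyruvate kinase), Pfkl (liver phosphofructokinase), Pfkfb1 and Pfkfb3 (enzymes that make and remove fructose 2,6-bisphosphate), Ugp2 (UDP-glucose pyrophosphorylase), Gys2 (liver glycogen synthase), Pygl (liver glycogen phosphorylase), and Ppp1r3b and Ppp1r3c (subunits that bring protein phosphatase 1 to glycogen). The 10 genes were chosen by function, for hepatic glucose entry, glycolysis and glycogen turnover, with earlier results of these data known. All 10 are among the 41079 genes of the deposited table and among the 16742 that passed the filter on low counts. The mice carried a floxed Gcgr allele with Albumin-Cre (LKO), or the floxed allele without Cre (CRE-), and were 20 to 22 months old on the C57BL/6J background. Albumin-Cre acts in hepatocytes from development on. Livers of 4 mice were sequenced in each of 4 groups, male CRE-, male LKO, female CRE- and female LKO. Library totals lay between 33268424 reads (female LKO 4) and 56488920 reads (female CRE- 2), and the counts of the 10 genes ran from 176 (Pfkfb3 in female CRE- 4) to 31335 (Pklr in male LKO 2).

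In hepatocytes glucagon acts through its receptor and cyclic AMP, and it is known to promote glycogen breakdown and restrain glycolysis. Glycogen phosphorylase, glycogen synthase, pyruvate kinase and the enzymes of fructose 2,6-bisphosphate are controlled in large part by phosphorylation, which RNA counts do not show. Transcription of Pklr, Ppp1r3b and other genes of the pathway is known to respond to insulin and glucose.

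Gcgr itself, the targeted gene, was at 161.8, 208.1, 200.7 and 180.0 CPM in female CRE- mice 1 to 4 and at 48.8, 131.9, 118.6 and 93.6 CPM in female LKO mice 1 to 4. In males it was at 190.4, 192.9, 127.3 and 189.6 CPM in CRE- mice and at 116.5, 135.9, 129.9 and 160.3 CPM in LKO mice. Values of the female groups were apart and those of the male groups overlapped. These counts include reads from exons that the deletion leaves in place. Gcgr fell in females, at -0.93 in log2 (SE 0.25, edgeR quasi-likelihood test, Benjamini-Hochberg adjusted p = 0.0443). With 1 of the 16 libraries left out, that edgeR adjusted p stayed under the threshold only without male CRE- 2 (0.0495), male CRE- 3 (0.0395) or female LKO 2 (0.0225). Without any other library it was above the threshold, at up to 0.136 (without female CRE- 2). The male log2 fold change of Gcgr was -0.37 (SE 0.24, edgeR adjusted p = 0.671 after Benjamini-Hochberg), and the difference between sexes was -0.57 (edgeR adjusted p = 0.412 after Benjamini-Hochberg). Without female LKO 1 that difference was -0.31.

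Levels of the 10 genes can be compared with each other only per length. Over the 16 mice Pygl had the highest mean, at 168.7 ± 49.8 RPKM (SD), followed by Pklr at 127.1 ± 62.0, Slc2a2 at 118.0 ± 41.5 and Ugp2 at 113.5 ± 30.4 RPKM. Ppp1r3b (48.5 ± 24.7 RPKM) and Gys2 (47.0 ± 20.8 RPKM) came next, then Ppp1r3c (17.3 ± 10.9), Pfkl (14.4 ± 5.26), Pfkfb1 (7.69 ± 3.82) and Pfkfb3 (1.84 ± 0.924 RPKM). Pygl ranked 1, Pfkfb1 ranked 9 and Pfkfb3 ranked 10 in every group. Ugp2 was above Ppp1r3b in all 16 livers and Pygl was above Pklr in 14 of them. Pklr and Slc2a2 were close, with Pklr above in 9 of 16, and the order of their group means differed by sex. Single female controls were divided. Pklr was above Slc2a2 in female CRE- 1 (70.2 against 63.6 RPKM) and CRE- 4 (135.6 against 120.0 RPKM), and below it in CRE- 2 and 3. Pklr ranked 2 in the male groups (174.2 and 172.8 RPKM in CRE- and LKO) and 4 in the female groups (104.1 and 57.2 RPKM), below Slc2a2 and Ugp2. The SD of log2 CPM over the 16 livers was highest for Pklr (1.003), Ppp1r3b (0.84) and Ppp1r3c (0.81) and lowest for Pfkl (0.43) and Ugp2 (0.44).

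**Figure D1:**
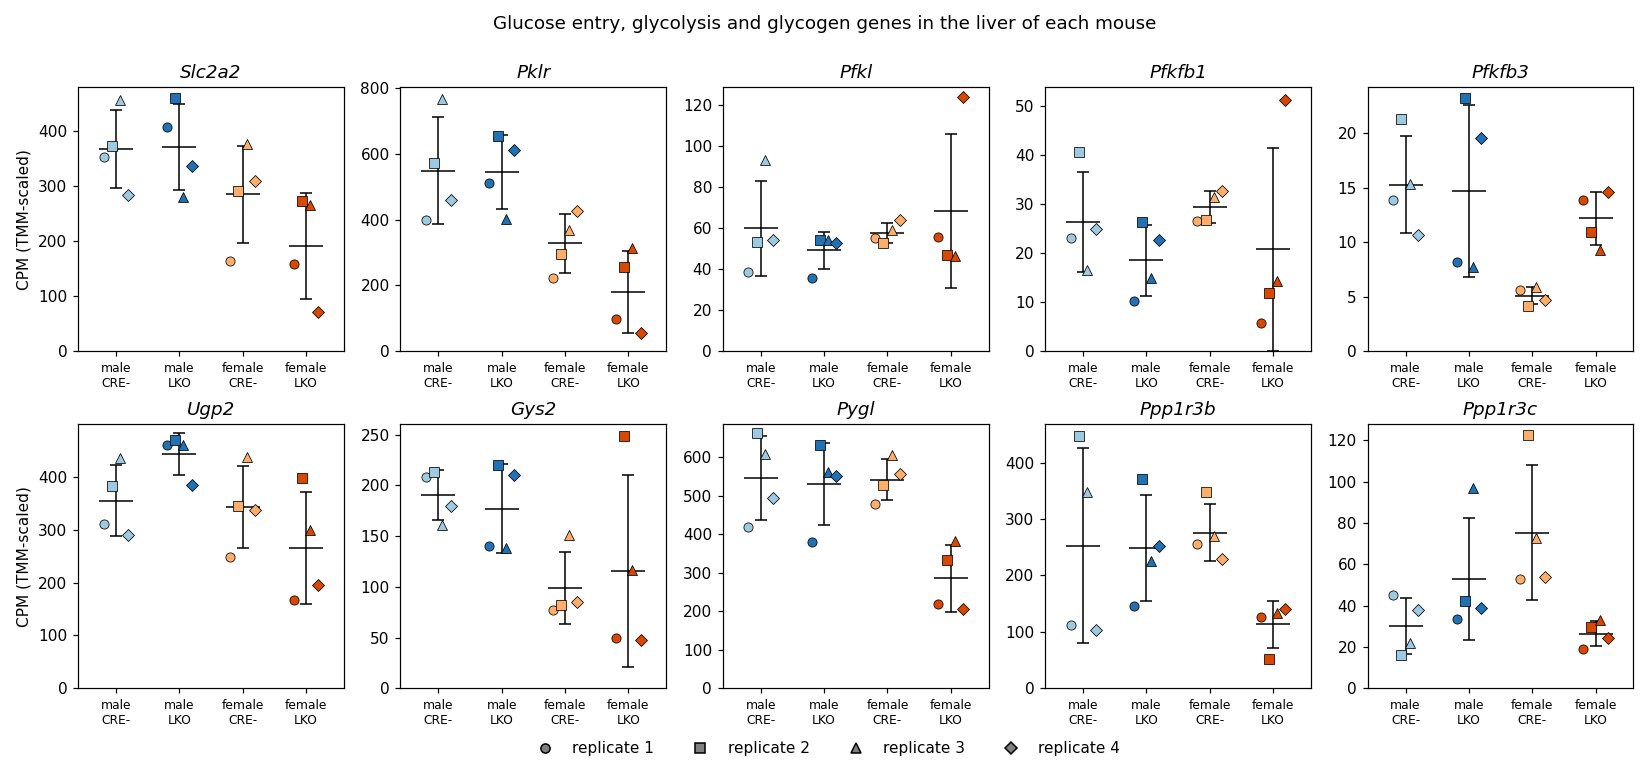
CPM of the 10 genes in each of the 16 livers, by group. Each point is 1 mouse.

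Female LKO livers held less Pygl and Ppp1r3c RNA and more Pfkfb3 RNA than female controls. Ppp1r3b was also lower in every female LKO liver than in every female control, without passing the test. Slc2a2, Pklr, Pfkl, Pfkfb1, Ugp2 and Gys2 had overlapping values. Of the 10 genes, 3 passed (1 higher, 2 lower) at the 0.05 threshold of the quasi-likelihood test of edgeR after the Benjamini-Hochberg step, where 4.24% of all genes tested did (2.09% higher, 2.15% lower). Unadjusted, 4 had a p under 0.05, against 21.4%. The 2 groups were apart for 4 of the 10, 1 higher and 3 lower, against 11.6% of genes tested (5.20% higher, 6.42% lower). The median log2 fold change of the 10 was -0.54, against 0.04 over all genes tested. Because the 10 were chosen with earlier results of these data known, these shares are not a test of the set. With 1 library left out, no member passed without male LKO 4, female CRE- 2, 3 or 4, or female LKO 1. Only Pfkfb3 passed without male LKO 2, and only Ppp1r3c without female CRE- 1. Without female LKO 4 the 3 genes lost their calls, and the 1 member that passed was Pfkfb1.

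Measures of the libraries also separated the female groups. Mitochondrial genes held 4.40%, 5.40%, 4.75% and 4.57% of counts in female controls 1 to 4 and 4.10%, 4.39%, 3.96% and 2.83% in female LKO mice 1 to 4. TMM factors were 0.953, 0.911, 0.904 and 0.807 in these controls and 1.13, 1.01, 1.13 and 1.04 in LKO mice. The median correlation of a library with the others of its group was 0.973, 0.975, 0.973 and 0.964 in controls and 0.917, 0.946, 0.944 and 0.944 in LKO mice. These measures move with the fall of Pygl and Ppp1r3c and the rise of Pfkfb3, and their part in the result was not tested.

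For glucose entry, Slc2a2 was at 163.5, 289.8, 376.1 and 308.5 CPM in female controls 1 to 4. In female LKO mice 1 to 4 it was at 157.4, 272.5, 265.6 and 71.0 CPM. LKO and control values overlapped, and the log2 fold change of Slc2a2 was -0.57 (SE 0.34, edgeR adjusted p = 0.367 after Benjamini-Hochberg). It was -0.29 without female LKO 4.

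Among the glycolysis genes, Pklr was at 221.0, 295.9, 366.8 and 427.1 CPM in female controls and at 96.3, 256.2, 312.6 and 55.2 CPM in female LKO mice. The change in log2 was -0.86 (SE 0.41, edgeR adjusted p = 0.240 after Benjamini-Hochberg), with overlap between the groups. It was -0.55 without female LKO 4. Pfkl was nearly alike in the controls, at 55.2, 52.9, 58.9 and 64.1 CPM, and stood at 55.8, 47.2, 46.5 and 124.2 CPM in LKO mice. Here the groups overlapped, at a log2 fold change of 0.24 (SE 0.30, edgeR adjusted p = 0.701 after Benjamini-Hochberg), which was -0.21 without female LKO 4.

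Pfkfb1 was between 26.5 and 32.7 CPM in the 4 female controls, at 26.5, 26.7, 31.6 and 32.7 CPM. Female LKO mice had 5.69, 11.9, 14.2 and 51.3 CPM, so 3 of the 4 were below every control and LKO 4 was above every control. Pfkfb1 had a log2 fold change of -0.50 (SE 0.49, edgeR adjusted p = 0.607 after Benjamini-Hochberg). Without female LKO 4 it was -1.46 (edgeR adjusted p = 0.0493 after Benjamini-Hochberg, against 0.0493 to 0.905 over the 16 fits with 1 library left out), and without female LKO 1 it was -0.17.

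Pfkfb3 rose in females. It was at 5.63, 4.17, 5.87 and 4.70 CPM in controls and at 13.8, 10.9, 9.29 and 14.6 CPM in LKO mice. Every LKO liver was above every control. This gave a log2 fold change of 1.25 (SE 0.33, edgeR quasi-likelihood test, Benjamini-Hochberg adjusted p = 0.0432). The edgeR adjusted p of Pfkfb3 was 0.0546 without male CRE- 1, 0.0511 without male LKO 4, 0.0711, 0.143, 0.0940 and 0.0907 without female CRE- 1 to 4, 0.0944 without female LKO 1 and 0.0763 without female LKO 4. It stayed under the threshold in the other 8 fits with 1 library left out, and the log2 fold change was between 1.15 and 1.36 in all 16. By limma-voom the log2 fold change was 1.09 (adjusted p = 0.0722, against 0.00465 to 0.143 over all alternatives). Pfkfb1 and Pfkfb3 encode enzymes of the same reaction pair, and the log2 of their RPKM ratio was 3.29, 3.74, 3.48 and 3.86 in female controls and -0.22, 1.17, 1.67 and 2.87 in female LKO mice. These ratios did not overlap, and they include Pfkfb3 itself. Their mean was 3.59 ± 0.25 (SD) in female CRE- and 1.37 ± 1.28 in female LKO livers. In males it was 1.81 ± 0.47 (SD) in CRE- and 1.47 ± 0.36 in LKO livers.

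Of the synthesis genes, Ugp2 was at 248.5, 346.1, 438.3 and 338.1 CPM in female controls and at 167.4, 398.3, 300.4 and 196.2 CPM in female LKO mice. The ranges overlapped, and the log2 fold change of Ugp2 was -0.37 (SE 0.25, edgeR adjusted p = 0.435 after Benjamini-Hochberg). Without female LKO 1 it was -0.18, and without female LKO 2 it was -0.63. Gys2 was at 76.8, 82.3, 151.1 and 84.7 CPM in controls. LKO mice spanned a wider range, at 49.9, 248.6, 116.6 and 47.4 CPM, reaching below and above the controls. For Gys2 the log2 fold change was 0.23 (SE 0.41, edgeR adjusted p = 0.805 after Benjamini-Hochberg), and it was -0.47 without female LKO 2 and 0.51 without female CRE- 3.

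Glycogen breakdown is represented by Pygl, the most abundant of the 10 per length, which fell in females. Controls 1 to 4 had 478.1, 529.0, 605.8 and 555.5 CPM and LKO mice 1 to 4 had 219.0, 333.5, 381.5 and 206.7 CPM. No LKO liver reached the lowest control. The log2 fold change was -0.93 (SE 0.23, edgeR quasi-likelihood test, Benjamini-Hochberg adjusted p = 0.0366). The edgeR adjusted p of Pygl was 0.0501 without male LKO 2, 0.0529 without male LKO 4, 0.0504, 0.0988, 0.103 and 0.0834 without female CRE- 1 to 4, 0.104 without female LKO 1 and 0.0772 without female LKO 4. In the 16 fits with 1 library left out the log2 fold change was between -1.10 and -0.79. With only the female groups in the fit it was -0.91 (edgeR adjusted p = 0.0961 after Benjamini-Hochberg, against 0.00299 to 0.104 over all alternatives). The log2 RPKM ratio of Gys2 to Pygl was -2.77, -2.82, -2.14 and -2.85 in female controls and -2.27, -0.56, -1.84 and -2.26 in LKO mice, and these overlapped.

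Ppp1r3c, a targeting subunit of protein phosphatase 1, had the largest change of the 10 and fell in females. It was at 52.7, 122.4, 72.8 and 53.7 CPM in controls and at 19.1, 29.4, 32.98 and 24.2 CPM in LKO mice. All LKO livers were below all controls. Its log2 fold change was -1.51 (SE 0.38, edgeR quasi-likelihood test, Benjamini-Hochberg adjusted p = 0.0395). The edgeR adjusted p of Ppp1r3c was 0.0562 without male LKO 2, 0.0546 without male LKO 4, 0.1497, 0.0893 and 0.0679 without female CRE- 2 to 4, and 0.119, 0.0545 and 0.0784 without female LKO 1, 3 and 4. The log2 fold change was between -1.65 and -1.18 over the 16 fits with 1 library left out, the latter without female CRE- 2. It was -1.45 with upper-quartile normalization and -1.49 with only the female groups in the fit (edgeR adjusted p = 0.0543 and 0.0502 after Benjamini-Hochberg, against 0.00402 to 0.1497 over all alternatives).

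Ppp1r3b, the other targeting subunit, was at 255.7, 347.5, 270.8 and 229.2 CPM in female controls and at 126.8, 51.8, 133.7 and 140.6 CPM in female LKO mice. Its values were apart, with a log2 fold change of -1.28 (SE 0.44, edgeR adjusted p = 0.0987 after Benjamini-Hochberg). DESeq2 gave -1.27 (adjusted p = 0.0334) and limma-voom -1.51 (adjusted p = 0.0196), and the adjusted p of Ppp1r3b was between 0.0196 and 0.243 over all alternatives. The log2 RPKM ratio of Ppp1r3b to Ppp1r3c was 1.16 ± 0.33 (SD) in controls and 1.25 ± 0.86 in LKO mice.

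**Figure D2:**
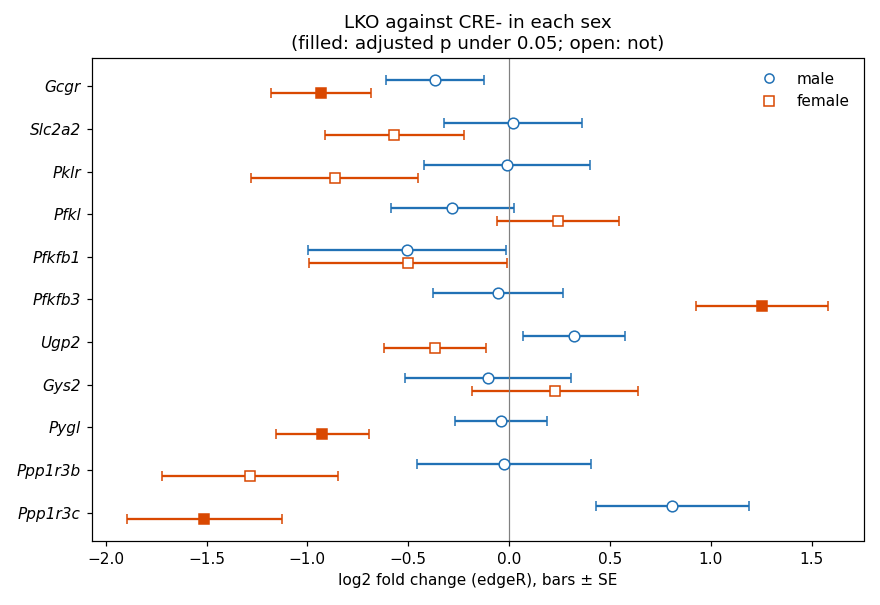
Log2 fold change of LKO against CRE- for Gcgr and each of the 10 genes in females and males, with its standard error.

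None of the 10 genes passed the test in male LKO livers. The highest log2 fold change belonged to Ppp1r3c, which went in the direction opposite to that in females. By the quasi-likelihood test of edgeR after the Benjamini-Hochberg step 0 of 10 passed, against 0.454% of all genes tested (0.221% higher, 0.233% lower). At an unadjusted p under 0.05 the count was 1, against 9.53% of genes tested. At the adjusted threshold DESeq2 and limma-voom also called 0 of the 10. LKO and control ranges overlapped for all 10, where 6.49% of genes tested had groups apart (3.57% higher, 2.92% lower). The median log2 fold change was -0.03, against -0.01 over all genes tested.

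In males Slc2a2 was at 353.0, 372.7, 455.7 and 283.4 CPM in controls and at 407.1, 459.7, 280.7 and 337.0 CPM in LKO mice, or 0.02 in log2 (SE 0.34). Pklr was at 397.5, 570.9, 766.5 and 459.3 CPM in controls and at 512.2, 652.4, 400.5 and 611.7 CPM in LKO mice, or -0.01 in log2 (SE 0.41). The ranges of the groups overlapped for both genes. Pfkl was at 38.6, 53.4, 93.3 and 54.2 CPM in male controls, with LKO mice at 35.9, 54.2, 54.3 and 52.6 CPM. All LKO values of Pfkl lay below control 3, and the log2 fold change was -0.28 (SE 0.30), or -0.00 without male CRE- 3. For Pfkfb1, controls had 23.0, 40.7, 16.6 and 25.0 CPM and LKO mice 10.2, 26.3, 14.9 and 22.7 CPM, with overlap. Its log2 fold change of -0.51 (SE 0.49) was the lowest of the 10 in males, and it was -0.22 without male CRE- 2. Pfkfb3 spread widely in LKO males, at 8.18, 23.2, 7.75 and 19.6 CPM, around controls at 13.8, 21.3, 15.3 and 10.7 CPM. The log2 fold change of Pfkfb3 was -0.06 (SE 0.32), and without male LKO 2 it was -0.38.

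Ugp2 was at 310.7, 383.8, 435.7 and 290.7 CPM in male controls and at 460.6, 469.5, 461.2 and 385.0 CPM in male LKO mice. In 3 of 4 LKO mice it was above every control, and the log2 fold change was 0.32 (SE 0.25). Gys2 had 208.6, 213.4, 161.0 and 179.5 CPM in controls and 140.1, 219.5, 138.3 and 210.0 CPM in LKO mice, with overlap, at a log2 fold change of -0.11 (SE 0.41). Pygl, at 419.2, 662.2, 608.6 and 494.3 CPM in controls and 379.3, 630.9, 561.7 and 551.4 CPM in LKO mice, overlapped almost fully, with a log2 fold change of -0.04 (SE 0.23). Male controls divided widely on Ppp1r3b, at 112.0, 448.0, 348.2 and 104.1 CPM, and LKO mice at 145.9, 371.1, 225.5 and 252.2 CPM lay within that range. The log2 fold change of Ppp1r3b was -0.03 (SE 0.43) and ran from -0.29 without male LKO 2 to 0.41 without male CRE- 2. Ppp1r3c was at 45.2, 16.1, 22.0 and 37.8 CPM in controls and at 33.6, 42.4, 97.1 and 39.0 CPM in LKO mice, with overlap. Its log2 fold change was 0.81 (SE 0.38, unadjusted p = 0.0485), and 0.34 without male LKO 3. The adjusted p over the 10 genes in males lay between 0.519 (Ppp1r3c) and 0.998 (Pklr) by edgeR after Benjamini-Hochberg.

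The response of these genes was compared between the sexes by the interaction of sex and genotype. Ppp1r3c had the largest difference, and its fold changes point in opposite directions. Pfkfb3 and Pygl, which passed in females, were near 0 in males. The difference in log2 fold change, female minus male, was -2.32 for Ppp1r3c (SE 0.54), 1.31 for Pfkfb3 (SE 0.46) and -0.89 for Pygl (SE 0.32). In the quasi-likelihood test of edgeR their p was 0.000517, 0.0110 and 0.0142, and after Benjamini-Hochberg the adjusted p was 0.140, 0.218 and 0.234. None of the 10 passed, and edgeR called 0.00% of all genes tested. At an unadjusted p under 0.05 there were 3 of the 10 by edgeR, against 2672 of the 16742 genes tested, and at the adjusted threshold DESeq2 gave 1 and limma-voom 0. DESeq2's call was Ppp1r3c, at -2.28 (adjusted p = 0.00703, against 0.00703 to 0.302 over all alternatives). Missing the threshold in this edgeR fit, which called none of the 16742 genes, does not show that the 3 genes called in females respond alike in the sexes. For the other 7 the difference was -1.26 for Ppp1r3b, -0.85 for Pklr, -0.69 for Ugp2, -0.59 for Slc2a2, 0.53 for Pfkl, 0.33 for Gys2 and 0.01 for Pfkfb1, with edgeR adjusted p of 0.322 to 0.998 after Benjamini-Hochberg. Without female LKO 4 the difference was -0.94 for Pfkfb1, 0.08 for Pfkl, -0.29 for Slc2a2 and -0.52 for Pklr. Without female LKO 2 it was -0.36 for Gys2. For Ppp1r3b the lowest difference over all alternatives was -2.17.

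Averaged over the sexes, Pygl, Pfkfb3 and Ppp1r3b came closest to the threshold. Pygl had a log2 fold change of -0.48 (SE 0.16), Pfkfb3 of 0.60 (SE 0.23) and Ppp1r3b of -0.65 (SE 0.31), with edgeR adjusted p of 0.132, 0.192 and 0.310 after Benjamini-Hochberg. None of the 10 passed edgeR's test, against 2.86% of genes tested (1.20% higher, 1.65% lower), with 3 at an unadjusted p under 0.05 (15.8% of genes tested). At the adjusted threshold DESeq2 and limma-voom also called 0. Pfkfb1 passed without female LKO 4, at -0.99 (edgeR adjusted p = 0.0387 after Benjamini-Hochberg, against 0.0387 to 0.739 over its alternatives), from -0.50 with all mice (edgeR adjusted p = 0.535 after Benjamini-Hochberg). For the remaining genes the log2 fold change was -0.44 for Pklr, -0.35 for Ppp1r3c, -0.28 for Slc2a2, 0.06 for Gys2, and -0.02 for both Pfkl and Ugp2. Without female LKO 4 it was -0.29 for Pklr and -0.14 for Slc2a2. For Ppp1r3c it ran from -0.59 without male LKO 3 to -0.18 without female CRE- 2. The median of the 10 was -0.31, against 0.02 over all genes tested.

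Between the control livers of the sexes only Pfkfb3 passed the test. It was lower in every female control than in every male control, with means of 5.09 ± 0.796 CPM and 15.3 ± 4.46 CPM (SD, n = 4). Gys2 was lower and Ppp1r3c higher in every female control than in every male control, without passing, and the other 7 overlapped. Of the 10, 1 passed by edgeR after Benjamini-Hochberg, lower in females, against 0.920% of genes tested (0.412% higher, 0.508% lower), and 3 had an unadjusted p under 0.05, against 12.7%. Groups were apart for 3 of 10, against 7.54% (4.37% higher, 3.17% lower). Pfkfb3 had a log2 fold change of -1.58 for female against male controls (SE 0.33, edgeR adjusted p = 0.0300 after Benjamini-Hochberg). That edgeR adjusted p of Pfkfb3 was 0.0692, 0.0752 and 0.0660 without male CRE- 1 to 3, and 0.0767, 0.118, 0.0659 and 0.0974 without female CRE- 1 to 4. The log2 fold change in these fits was between -1.66 and -1.38. The female LKO mean of Pfkfb3, 12.2 ± 2.47 CPM (SD), lay between those of the female and male controls. Ppp1r3c was at 1.32 (SE 0.38) and Gys2 at -0.95 (SE 0.42), with edgeR adjusted p of 0.144 and 0.356 after Benjamini-Hochberg. DESeq2 called Ppp1r3c, at 1.29 (adjusted p = 0.0358, against 0.0358 to 0.419 over its alternatives).

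Single livers stood out across several of the 10 genes. Male LKO 2 was the highest of its group for 8 of 10, and female CRE- 1 was the lowest of its group for 7. Female LKO 4 was the lowest of its group for Slc2a2, Pklr, Gys2 and Pygl and the highest for Pfkl, Pfkfb1, Pfkfb3 and Ppp1r3b. The median within-group SD of log2 CPM of the 10 was 0.41 in male CRE-, 0.34 in male LKO, 0.29 in female CRE- and 0.68 in female LKO. Over all genes tested these medians were 0.45, 0.28, 0.32 and 0.49.

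Profiles over the 16 livers were compared with those of all genes tested, by the root-mean-square distance between log2 CPM centred on each gene's mean, for the 3 of the 10 with the largest SD of log2 CPM. Pklr lay nearest to Spsb4 (distance 0.36), Slc2a2 (0.41) and Rd3 (0.42). Near Ppp1r3b were Fgf1 (0.51) and Acnat1 (0.53), and nearest to Ppp1r3c were Dhrs3 (0.47), Rab38 (0.49) and Hsd17b2 (0.50).

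Of 30 other genes of glycolysis and glucose entry, 29 were tested. By edgeR with Benjamini-Hochberg adjustment 1 was higher and 0 lower in females (13 at an unadjusted p under 0.05), and 0 passed in males (3 at an unadjusted p under 0.05) or on average (6 at an unadjusted p under 0.05). The higher gene was Hk2, at 3.904, 2.76, 2.99 and 1.76 CPM in female controls and 36.0, 3.91, 7.99 and 6.31 CPM in female LKO mice, with the groups apart. Hk2 had a log2 fold change of 2.24 (SE 0.54, edgeR adjusted p = 0.0334 after Benjamini-Hochberg) and an interaction of 3.51 (edgeR adjusted p = 0.135 after Benjamini-Hochberg). Without female LKO 1 it was 1.11, with an edgeR adjusted p of 0.106, and without female CRE- 1 to 4 that edgeR adjusted p was 0.0504, 0.106, 0.0908 and 0.0877. Gapdh and Khk, among the most abundant of the list per length, had female log2 fold changes of -0.18 and -0.74 (edgeR adjusted p = 0.723 and 0.208 after Benjamini-Hochberg). Of 29 other glycogen genes, 0 passed in females (6 at an unadjusted p under 0.05) and 0 in males (2 at an unadjusted p under 0.05) by edgeR, and 1, Epm2a, was lower on average (6 at an unadjusted p under 0.05). Epm2a had an averaged log2 fold change of -0.63 (SE 0.15, edgeR adjusted p = 0.0299 after Benjamini-Hochberg), and the edgeR adjusted p was 0.0509 to 0.0684 in 8 of 16 fits with 1 library left out, those without male CRE- 2, male LKO 1, 2 and 4, female CRE- 2 to 4 and female LKO 3. Ppp1ca and Pgm1, among the most abundant glycogen genes of the list, averaged 120.9 and 90.3 RPKM, and Pgm1 was at -0.57 in females (edgeR adjusted p = 0.0849 after Benjamini-Hochberg). Median log2 fold changes in females were 0.18 for the glycolysis list and -0.00 for the glycogen list.

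Among 10 regulators of the pathway, 0 passed in males by edgeR with Benjamini-Hochberg adjustment (2 at an unadjusted p under 0.05, and 7 in females). In females Mlxip rose, at 1.03 in log2, and Srebf1 fell, at -1.39, with edgeR adjusted p of 0.0397 and 0.0369 after Benjamini-Hochberg. Each lost its call without any 1 of female CRE- 1 to 4, female LKO 1, female LKO 4 and male LKO 4, with a highest edgeR adjusted p of 0.115 for Mlxip and 0.107 for Srebf1. Mlxip also lost it without male LKO 2 or 3, and Srebf1 without male CRE- 1 or female LKO 3. Hnf4a (118.6 RPKM), Srebf1 (81.5 RPKM) and Txnip (63.7 RPKM) were the most abundant of the list, whose median log2 fold change was -0.58 in females and -0.24 in males. The interactions of Mlxip and Srebf1 were 1.52 and -0.18 (edgeR adjusted p = 0.144 and 0.878 after Benjamini-Hochberg). On average over the sexes Srebf1 fell, at -1.30 (SE 0.25, edgeR adjusted p = 0.00811 after Benjamini-Hochberg), and this passed in all 16 fits with 1 library left out.

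Hepatocyte markers were abundant in every liver, as a check of the tissue. Of 10 markers, 9 were in the table, with Alb the most abundant, and none had 0 counts in any library. Their summed CPM was 125234, 116981, 122123 and 137777 in female controls and 61485, 96349, 94165 and 75094 in female LKO mice. In males the sums were 75006, 101526, 115659 and 101154 in controls and 68854, 79608, 97624 and 81124 in LKO mice. In females 0 of 9 had a positive log2 fold change, the median was -0.57, and 0 passed edgeR's test (4 at an unadjusted p under 0.05). In males the median was -0.11. The summed level of this list was lower in every female LKO liver than in every female control, as for Pygl, Ppp1r3b and Ppp1r3c, and its part in the result was not tested. In bulk samples fewer cells of a type and less RNA per cell cannot be told apart.

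Of the marker lists of other cells and of proliferation, 4 had a call in females. All 10 macrophage markers had a positive female log2 fold change (median 1.39), and 1, Adgre1, passed edgeR's test. Adgre1 was at 2.15 in log2, and 1.21 without female LKO 1. It lost its call without that mouse, female LKO 3, any 1 of the female controls, male CRE- 1 or male LKO 2 to 4, with an edgeR adjusted p of up to 0.189 after Benjamini-Hochberg. Their sums, with Cd5l the most abundant, were 886.2, 664.1, 735.4 and 1463 CPM in female controls and 4227, 1119, 2612 and 1557 CPM in female LKO mice. In males those sums were 1010, 542.7, 299.1 and 1518 CPM in controls and 1363, 745.5, 832.7 and 764.7 CPM in LKO mice.

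All 7 neutrophil markers tested, of 8, were positive in females (median 3.17) and negative in males (median -2.23), and Retnlg, Mmp8 and Ngp passed in females. Retnlg and Mmp8 lost the call without any 1 of the female controls, female LKO 1 or female LKO 4, with an edgeR adjusted p of up to 0.115 and 0.0847 after Benjamini-Hochberg. Ngp kept it only without male CRE- 2, 3 or 4 or female LKO 2, with an edgeR adjusted p of up to 0.155 after Benjamini-Hochberg in the other 12 fits. Without female LKO 4, log2 fold changes were 2.04 for Retnlg (from 2.86), 2.66 for Mmp8 (from 3.50) and 2.79 for Ngp (from 4.68). Under alternatives that left out no library, Retnlg passed in females in 7 of 8, Mmp8 in 5 of 7 and Ngp in 4 of 7. The lowest female log2 fold change of Mmp8 among these was 1.85. Neutrophil sums, with S100a9 the most abundant, were 38.1, 21.04, 17.2 and 18.6 CPM in female controls, 126.1, 45.7, 68.0 and 602.2 CPM in female LKO mice, 88.2, 21.3, 18.7 and 173.7 CPM in male controls and 27.4, 16.97, 13.3 and 12.6 CPM in male LKO mice. Ly6g had 0 counts in 9 libraries.

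Of 6 proliferation markers, Top2a, Cdk1 and Ccnb1 passed in females (median 2.08), and the sums, with Mki67 the most abundant, were 10.03, 8.47, 5.22 and 18.1 CPM in female controls, 80.4, 14.3, 33.4 and 33.4 CPM in female LKO mice, 11.8, 5.61, 21.1 and 8.63 CPM in male controls and 14.7, 8.79, 13.99 and 5.83 CPM in male LKO mice. Bub1 had 0 counts in 3 libraries. Without female LKO 1 none of the 3 passed, and Top2a was at 1.76 in log2, from 2.45. None passed without female CRE- 2 or 3 either. Top2a and Cdk1 lost the call without female CRE- 1, Top2a and Ccnb1 without female CRE- 4, and Top2a without male CRE- 1, male LKO 2, female LKO 3 or female LKO 4. The highest edgeR adjusted p was 0.139 for Top2a, 0.0988 for Cdk1 and 0.0938 for Ccnb1 after Benjamini-Hochberg. Pfkfb3 and Hk2 passed as higher in the same female comparison as these 7 markers of 3 lists. Macrophage and proliferation sums overlapped between the female groups. Neutrophil sums did not, and were higher in every female LKO liver than in every female control. The part of the markers in the result was not tested.

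Endothelial markers (8, Stab2 most abundant) had 1 call in females, Cdh5, at a list median of 0.15, and of 0.30 in males. Cdh5 lost it without female CRE- 2, 3 or 4 or female LKO 1, at an edgeR adjusted p of up to 0.0745 after Benjamini-Hochberg. Median log2 fold changes in females and males were 0.26 and -0.07 for T and NK cells (8, Nkg7), 0.76 and 0.15 for B and plasma cells (7, Ighm), 0.05 and -0.55 for stellate cells and fibroblasts (8, Dcn), 0.26 and 0.50 for cholangiocytes (6 tested of 7, Spp1) and 0.57 and -1.28 for erythroid cells (6, Hbb-bs). None of these lists had a call in either sex by edgeR, and Krt19 of the cholangiocyte list was higher in female than in male controls, a call lost without any 1 of those 8 mice (edgeR adjusted p up to 0.0989 after Benjamini-Hochberg). Averaged over the sexes Cdh5 and Ccnb1 passed, and each lost this call in 13 of 16 fits with 1 library left out (edgeR adjusted p up to 0.0846 and 0.107 after Benjamini-Hochberg). Cdh5 kept it only without male CRE- 4, male LKO 2 or female LKO 2, and Ccnb1 only without male LKO 4, female CRE- 1 or female LKO 2. Skeletal muscle markers (7, Acta1) had medians of -1.29 and 7.17, and their sum was 149.3 CPM in male LKO 3 and 85.1 CPM in male LKO 4, against 0.780 to 32.3 CPM in the other 14 livers, and 6 of the 7 genes had 0 counts in some libraries. Male LKO 3 was the highest of its group for Ppp1r3c (97.1 CPM, next 42.4 in male LKO 2). For Pfkl it was level with male LKO 2 (54.26 and 54.22 CPM). The part of these markers was not tested.

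**Figure D3:**
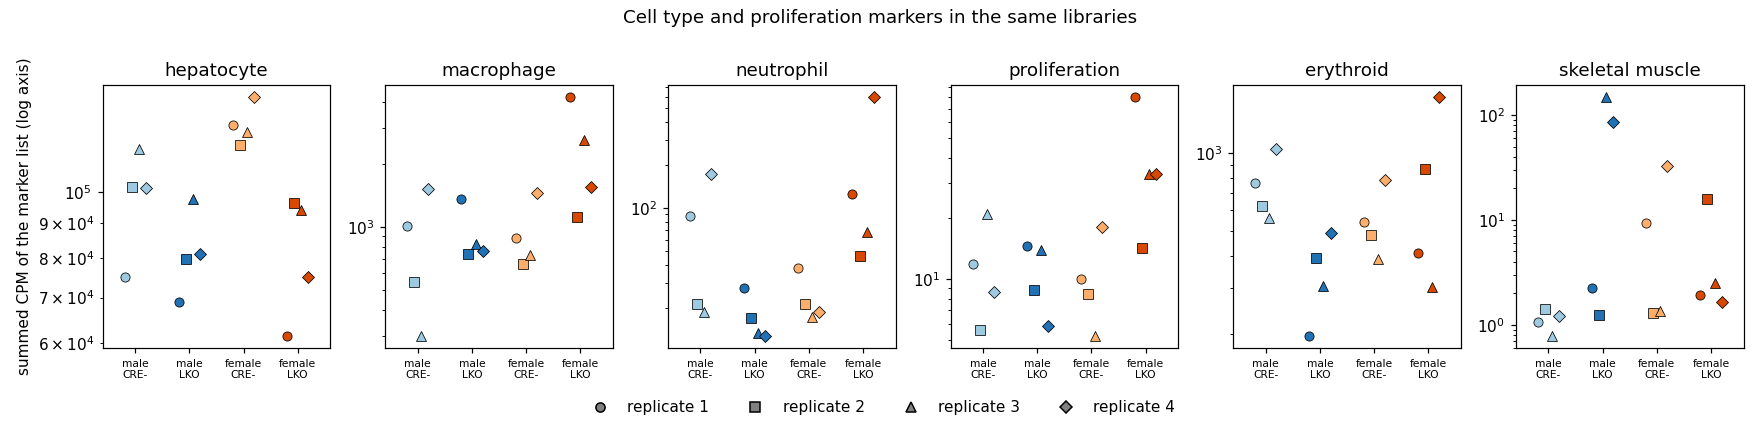
Summed CPM of 6 of the marker lists in each of the 16 livers. Each point is the sum over 1 list in 1 mouse.

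On GRCm39, Slc2a2 lies on chr3:28752052-28782510, Pklr on chr3:89043429-89054122, Pfkl on chr10:77822781-77845641 and Pfkfb1 on chrX:149370441-149426874. Pfkfb3 is on chr2:11476241-11558882, Ugp2 on chr11:21271126-21321267, Gys2 on chr6:142368339-142418856 and Pygl on chr12:70237589-70274457. The positions of Ppp1r3b and Ppp1r3c are chr8:35842847-35855293 and chr19:36709131-36714004.

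Promoters of 8 of the 10 genes, 14 windows from 250 bases before to 50 bases after a transcription start, were read from a RefSeq table on GRCm38.p6. Gys2 and Ppp1r3b were not in the table. Each window matched GRCm39 exactly and once. The letters TGACG (the half-site of the cyclic AMP response element, CGTCA on the other strand) and CACGTG (an E-box) were searched on both strands, and the motifs and the windows shown were chosen after the values were seen. TGACG is in 20.8% of the 32851 promoters of the table and CACGTG in 7.15%. Among the windows of the 10 genes, 3 windows of 2 genes, Pfkfb3 and Pygl, hold TGACG, and 2 windows of 2 genes, Pfkfb3 and Ppp1r3c, hold CACGTG. Such a match describes the sequence and does not show a binding site or a cause. Pfkfb3 has TGACG at bases -112 and -62 of its start 1 (chr2:11558691-11558990, minus strand), and TGACG at -6 and CACGTG at -53 of its start 2 (chr2:11506852-11507151, minus strand). Pygl has it as CGTCA at -44 (chr12:70274408-70274707, minus strand), and Ppp1r3c has CACGTG at -104 (chr19:36713955-36714254, minus strand). The 4 windows of the 3 genes that passed in females follow, on the strand of the gene, with the motifs in capitals.

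Pfkfb3 start 1: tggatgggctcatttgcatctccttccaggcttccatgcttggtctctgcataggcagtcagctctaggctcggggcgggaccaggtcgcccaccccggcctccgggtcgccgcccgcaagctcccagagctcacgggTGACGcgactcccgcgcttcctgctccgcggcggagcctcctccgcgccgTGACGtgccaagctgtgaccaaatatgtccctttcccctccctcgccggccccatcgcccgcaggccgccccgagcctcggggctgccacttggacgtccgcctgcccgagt
Pfkfb3 start 2: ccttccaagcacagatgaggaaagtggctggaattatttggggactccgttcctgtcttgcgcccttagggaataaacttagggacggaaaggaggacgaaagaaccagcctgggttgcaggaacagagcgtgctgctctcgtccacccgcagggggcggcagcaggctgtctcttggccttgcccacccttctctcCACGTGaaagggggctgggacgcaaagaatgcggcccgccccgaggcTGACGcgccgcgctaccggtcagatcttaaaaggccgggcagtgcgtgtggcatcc
Pygl: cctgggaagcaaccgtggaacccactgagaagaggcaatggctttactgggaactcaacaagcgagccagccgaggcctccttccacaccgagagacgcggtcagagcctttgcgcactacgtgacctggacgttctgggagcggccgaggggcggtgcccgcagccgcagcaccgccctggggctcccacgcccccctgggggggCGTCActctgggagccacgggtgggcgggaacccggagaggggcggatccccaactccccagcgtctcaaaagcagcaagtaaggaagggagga
Ppp1r3c: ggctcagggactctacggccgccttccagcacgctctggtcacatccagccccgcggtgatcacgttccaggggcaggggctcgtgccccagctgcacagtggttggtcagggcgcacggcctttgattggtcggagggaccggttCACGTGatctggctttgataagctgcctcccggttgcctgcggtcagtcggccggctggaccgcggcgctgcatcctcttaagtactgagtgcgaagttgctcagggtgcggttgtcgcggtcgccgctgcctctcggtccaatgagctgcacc

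RNA was measured once per mouse at 1 age, in 4 mice per group, so the counts show neither glycogen, flux, protein nor phosphorylation. No fast before dissection is mentioned for these livers, and the time of day is not given. The calls in females sit close to the threshold, and each of the 3 was lost in 8 of 16 fits with 1 library left out.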

How the data were processed

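The authors aligned paired reads of 150 bases to GRCm39 with STAR 2.7.1a and counted them per RefSeq gene with featureCounts 2.0.6, and deposited these counts for each library, with each read of a pair counted singly. Counts were filtered with filterByExpr (minimum count 10), scaled by TMM and fitted in 4 groups by edgeR 4.0.16 (quasi-likelihood, R 4.3.3). Benjamini-Hochberg adjustment ran over all 16742 genes, with a threshold of 0.05. CPM used the TMM library sizes and RPKM the deposited lengths. Genes named are the 10 members, Gcgr, the genes of the lists past the threshold, the most abundant of each list (3 per pathway list, 1 per marker list), and the 3 genes nearest in profile to each of the 3 most variable members. Some genes that this rule names are not reported here. The members and the lists were chosen with earlier results of these data known. Alternatives were DESeq2 1.42.0, limma 3.58.1 voom with sample quality weights, RLE and upper-quartile normalization, no filter, a strict filter, each pair of groups fitted alone, a replicate block, and leaving out each library. The alternatives for list genes other than members were added after seeing the data. Scripts were tested on simulated counts.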

Additional observations from a re-analysis of the deposited data

Results flagged for a closer look

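A mouse was flagged where its CPM lay far from the other 3 of its group. Of 44 groups of values, 7 were flagged, where chance flags about 1 in 20 groups, or 2.20 here. Gcgr in male CRE- 3 was the lowest of its group at 127.3 CPM, with the next at 189.6 CPM. Pfkl was flagged in male LKO 1 (lowest, 35.9 CPM, next 52.6) and in female LKO 4 (highest, 124.2 CPM, next 55.8). Gys2 in female CRE- 3 was the highest, at 151.1 CPM, with the next at 84.7. Ugp2 in male LKO 4 was the lowest, at 385.0 CPM, with the next at 460.6. Ppp1r3b in female LKO 2 was the lowest, at 51.8 CPM, with the next at 126.8, and Ppp1r3c in male LKO 3 was the highest, at 97.1 CPM, with the next at 42.4.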

How the results depend on the processing

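Of 1298 values of Gcgr and the 10 genes under an alternative, 1158 kept their direction and side of the threshold, 52 lost and 13 gained a call, and 75 changed sign. The sign changes fall on 20 of 55 results, none with an unadjusted p under 0.05 and none with an absolute log2 fold change over 0.53. Group levels of the 10 genes were also taken without TMM factors and with a prior count of 0.5, which gave 80 values. Of these 80, 77 moved by less than 1 SD. The 3 that moved further were all without TMM factors (Pfkl, Pfkfb1 and Pygl in female CRE-). For the other list genes past the threshold, 248 of 400 values kept their call and 152 lost it, with no change of sign. The cause was not tested.

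By upper-quartile normalization the male log2 fold change was 0.00342 for Pklr and 0.00795 for Ppp1r3b, and the average was 0.00306 for Pfkl and 0.0144 for Ugp2. By limma-voom the male value was 0.25 for Pklr, 0.0576 for Pfkl, 0.15 for Pfkfb3, 0.15 for Pygl and 0.66 for Ppp1r3b, the female value -0.0297 for Pfkl, and the interaction -0.55 for Pfkfb1 and -0.0873 for Pfkl. The limma-voom average was 0.0140 for Pfkl and 0.0655 for Ugp2, and female against male controls gave 0.19 for Pfkl, 0.12 for Pygl and 0.0895 for Ugp2. The cause was not tested.

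With 1 library left out, sign changes gave these ranges. Males: Slc2a2 -0.11 to 0.13, Pklr -0.15 to 0.18, Pfkfb3 -0.38 to 0.16, Pygl -0.16 to 0.0762, Ppp1r3b -0.29 to 0.41. Females: Pfkl -0.21 to 0.39, Gys2 -0.47 to 0.51. Interaction: Pfkfb1 -0.94 to 0.35, Gys2 -0.36 to 0.62. Average: Pfkl -0.25 to 0.13, Gys2 -0.29 to 0.20, Ugp2 -0.15 to 0.06999. Controls: Gcgr -0.0414 to 0.17, Pfkl -0.22 to 0.23, Pfkfb1 -0.0205 to 0.45, Pygl -0.12 to 0.0982, Ugp2 -0.19 to 0.0773, Ppp1r3b -0.13 to 0.56. The cause was not tested.

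Counts of genes past the threshold were 76 in males, 710 in females, 0 for the interaction, 478 on average and 154 between controls by edgeR. DESeq2 gave 339, 1816, 371, 1034 and 509, and limma-voom gave 148, 1976, 29, 857 and 329. With only the 2 groups compared there were 119 in females and 249 between controls, and fewer samples enter that fit. No filter gave 12 for the interaction, and the strict filter 78 between controls. With 1 library left out the counts were 26 to 111, 87 to 1310, 0 to 14, 299 to 598 and 68 to 213. Of the 10 genes, 3 in females became 4 by DESeq2, 1 with only the female groups and 0 to 3 with 1 library left out, and 0 for the interaction became 1 by DESeq2. On average 0 became 0 to 1 with 1 library left out, and between controls 1 became 2 by DESeq2 and 0 to 1 with 1 library left out. The cause was not tested.

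Replicate numbers were tried as a block, though the labels name no pairs. Correlations of 24 pairs with the same number ran from -0.25 to 0.33. Their median was 0.09, against -0.02 for pairs with different numbers. Of 16 libraries, 10 correlated best with their own number, a hint from the data and not the design. With the block there were 63 calls in males, 1244 in females, 0 for the interaction, 629 on average and 161 between controls. Of the 10 genes 1 passed on average, Pygl at -0.50. The male value was 0.0749 for Pklr and 0.0711 for Ppp1r3b, the interaction -0.24 for Pfkfb1, the average -0.0515 for Gys2 and the controls 0.0145 for Pygl. The cause was not tested. Genes with few counts, such as Pfkfb3, have more counting error.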
